A study of Mus musculus with 4 samples.

Results

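The genes described are the matrix proteases and their inhibitors, meaning every gene whose array name is Mmp, Timp, Adam or Adamts followed by a digit. The arrays held 78 such genes on 116 probes, of 30175 gene names on 39429 probes in all. Each gene is given by 1 probe, the brightest over the arrays, and 33 of the 78 genes had more than 1 probe. The cells were NIH-3T3:Per2-Luc, a mouse embryonic fibroblast line that carries luciferase behind the promoter of the clock gene *Per2*. RNA was measured on 4 one-color Agilent arrays, all on 1 slide, with 1 array per condition. The control received fresh medium with 0 mM H2O2 and is labelled 4 h. The other arrays followed a cOS-pulse, a critical dose of oxidative stress (5 mM H2O2 for 10 min), by 4 h, 20 h and 32 h. Each array is 1 culture of 1 cell line, and without replicates the differences could not be tested. The study asked how the cOS-pulse reset the circadian clock and changed gene expression over time.

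Matrix metalloproteinases (MMPs) are zinc enzymes that cleave collagens, proteoglycans and other proteins outside the cell, mostly after their own propeptide has been removed. ADAMs are membrane proteins, of which some cut the ectodomains of growth factors, cytokines and receptors from the cell surface, and ADAMTS proteins are secreted relatives that cleave proteoglycans and procollagens. The tissue inhibitors of metalloproteinases (TIMPs) bind the active site of these enzymes, and fibroblasts are known as a main source of both the proteases and the inhibitors in connective tissue.

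Values are log2 signals relative to the 75th percentile of the array, called scaled log2 signal, so 0 is the 75th percentile. Levels were compared between arrays for 1 gene and never between genes, because probes differ in brightness. A gene was called detected when its probe, the brightest one, was well above background by the scanner software. Other probes are given for some genes only, and those not given can differ in detection. A ratio with 1 detected array is a bound, written "at least", taken against the dim array, either at its own signal or at its lowest detected one (-5.11 to -4.73), whichever is brighter. The error of a log2 ratio is the scanner's error of both spots (0.204 to 0.426, median 0.206). It is computed by the scanner software, and many values lay close to the lowest. It is therefore not a spread measured for each gene, and it leaves out the spread between cultures. The 3 pulsed arrays were set against the same control array. At 20 h and 32 h, the effects of the pulse and of the time since the medium change cannot be told apart.

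The labelled cell type was checked by marker genes. All 10 fibroblast markers were detected on each array. In the control, 2 of 7 epithelial, 4 of 8 macrophage and leukocyte, 3 of 6 endothelial, 2 of 8 testis germ cell and 1 of 6 chondrocyte markers were detected. Those detected in the control were *Krt8* and *Krt14*, *Cd68*, *Csf1r*, *Itgam* and *Cd14*, *Pecam1*, *Cdh5* and *Kdr*, *Prm1* and *Prm2*, and *Sox9*. Among the markers detected on no array were *Epcam*, *Cdh1*, *Ptprc*, *Tek*, *Ddx4* and *Dazl*. Between 52.7% and 59.1% of all probes were detected per array, the highest share at 4 h.

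At least 1 array detected 52 of the 78 genes, and all 4 arrays detected 33. In the control 36 were detected, or 46.2%, where the share over all genes was 53.9%. The number was 46 at 4 h, 39 at 20 h and 36 at 32 h. The 4 h array had the largest number, as it had the largest share of detected probes overall. By role, all 4 TIMPs and both gelatinases were detected on each array, and 8 of 9 catalytic somatic ADAMs were. Among the genes grouped as collagenases 1 of 4 was detected in the control, and among the membrane-type MMPs 2 of 6. Among the ADAMs known mainly from the reproductive tract it was 5 of 20. Of the ADAMTS proteoglycanases, which cleave aggrecan and versican, 4 of 7 were detected, and of the procollagen N-proteinases, which trim fibrillar collagens, 2 of 3.

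**Figure D1:**
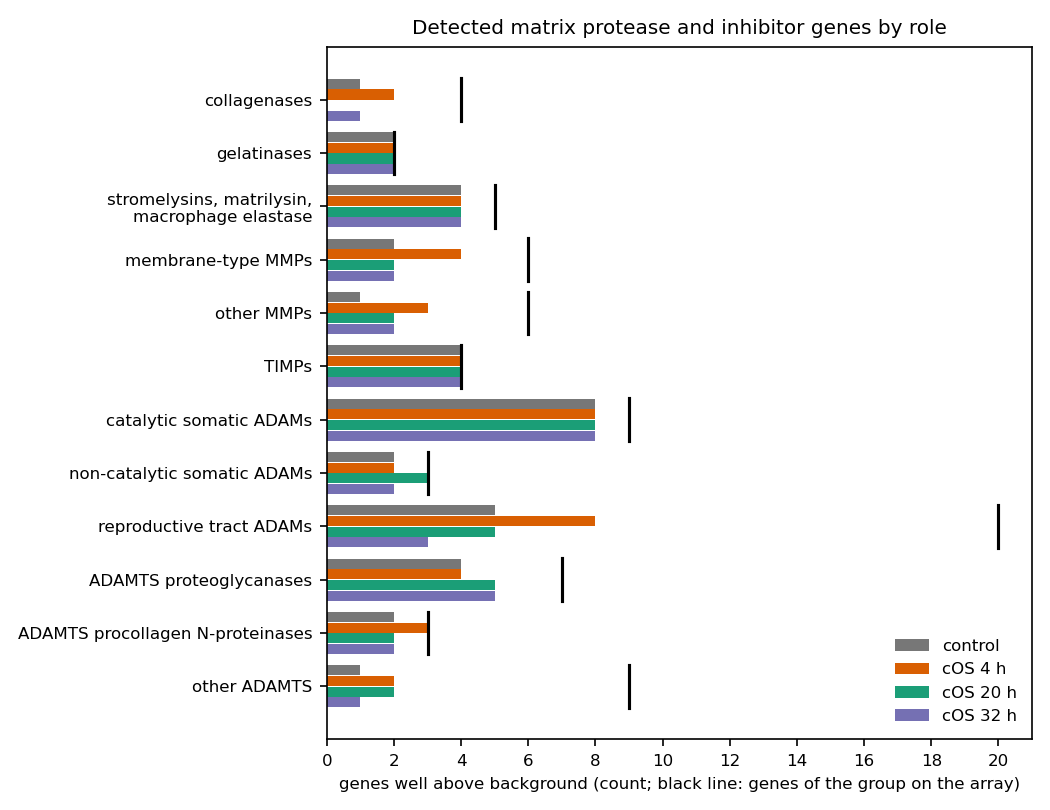
Number of genes well above background (horizontal axis, count) in each role group, with 1 bar per array (control, and 4 h, 20 h and 32 h after the cOS-pulse) and a black line at the number of genes of the group. The TIMP and gelatinase bars reach their line on all 4 arrays, while 8 of the 20 reproductive tract ADAMs were detected at 4 h and 5 in the control.

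The 26 genes whose brightest probe was detected on no array were *Adam1b*, *Adam2*, *Adam6a*, *Adam7*, *Adam18*, *Adam25*, *Adam26b*, *Adam28*, *Adam29*, *Adam34*, *Adam39*, *Adamts6*, *Adamts9*, *Adamts13*, *Adamts16*, *Adamts17*, *Adamts18*, *Adamts19*, *Adamts20*, *Mmp1a*, *Mmp1b*, *Mmp12*, *Mmp15*, *Mmp16*, *Mmp20* and *Mmp28*. They include *Mmp1a* and *Mmp1b*, the mouse relatives of human interstitial collagenase, and the macrophage elastase *Mmp12*. The enamel protease *Mmp20* and the von Willebrand factor cleaving protease *Adamts13* are also among them. A second probe of *Adamts18* was detected at 4 h, at -4.32. The signal of these genes was otherwise not told from background, which does not show that the transcript was absent.

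Most of the genes were not past 2-fold of the control, and at the late times more of those past it were lower than higher. As shares of the 78 genes, both counts at 20 h were above those over all genes, and neither count at 4 h was. At 4 h, 5 were at least 2-fold higher and 1 was at least 2-fold lower, of the 78, against 6.78% and 5.06% of all genes. At 20 h, 4 were higher and 6 lower, against 0.822% and 2.0% of all genes. At 32 h, 1 was higher and 4 were lower, against 1.26% and 1.55%. The median measured log2 ratio was 0.11, -0.03 and 0.04 at 4 h, 20 h and 32 h, beside 0.17, -0.00 and -0.00 over all genes. Each array measured the RNA of a whole culture relative to its other transcripts. A smaller share of cells with a transcript and less of it per cell therefore cannot be told apart.

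**Figure D2:**
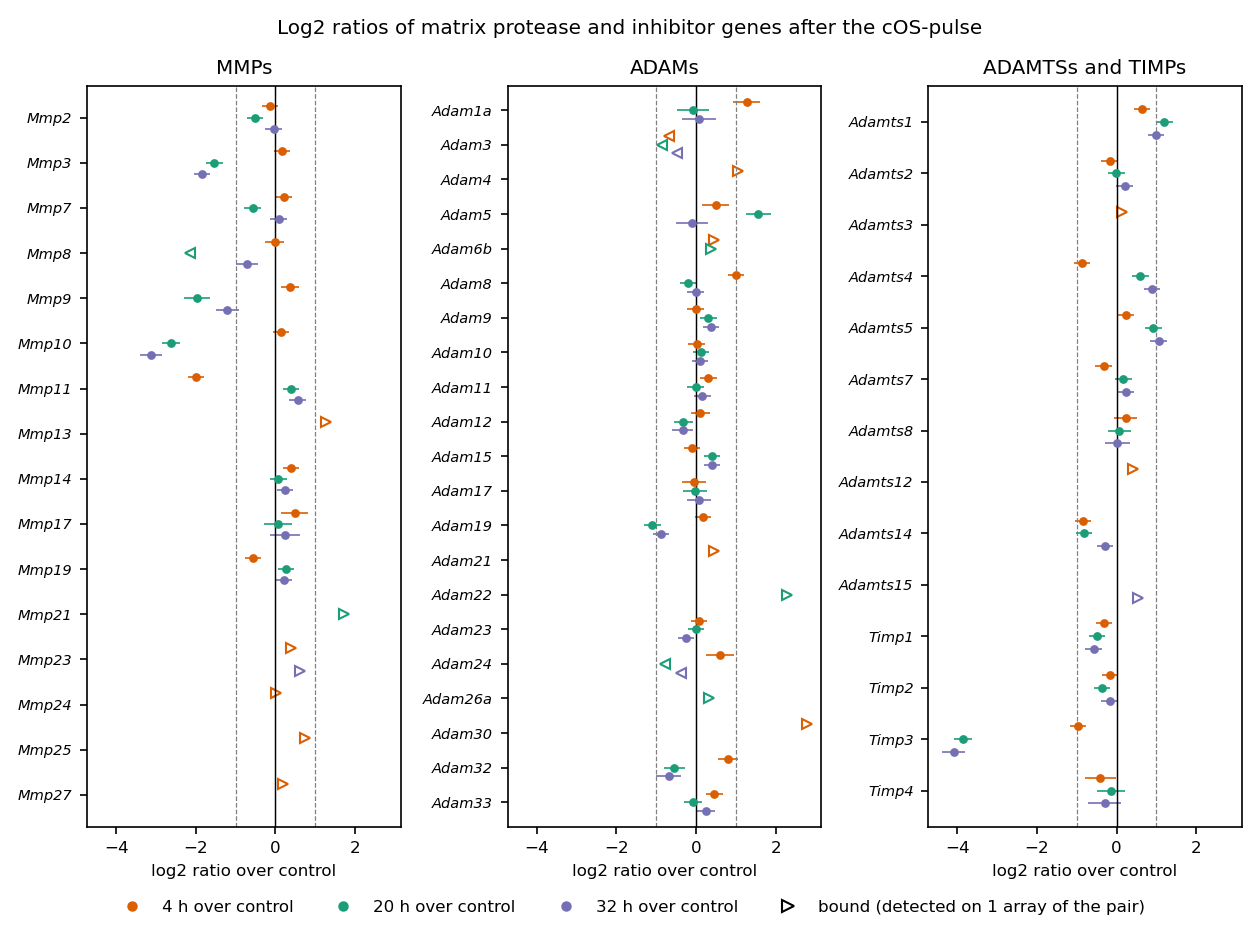
Log2 ratio over the control (horizontal axis) of each gene with a ratio at 4 h (orange), 20 h (green) or 32 h (violet). Filled points are measured ratios with the scanner's spot error, open triangles are bounds, and dashed lines mark 2-fold. The lowest points belong to *Timp3* and *Mmp10* at 20 h and 32 h. Among the late points, *Mmp8* (a bound) and *Mmp9* at 20 h and *Mmp3* at both times come next. *Mmp11* is the low point at 4 h.

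Among the inhibitors, *Timp3* fell far below the control and the other TIMPs did not pass 2-fold. *Timp3* encodes the TIMP that is bound to the matrix and also inhibits several ADAM and ADAMTS enzymes. Its probe lies at chr10:85811696-85811755 (mm9, + strand). Its scaled log2 signal was 0.03 in the control, -0.94 at 4 h, -3.83 at 20 h and -4.06 at 32 h. The signal was lower on each later array, and at 20 h and 32 h it was still detected. The log2 ratio over the control was -0.97 ± 0.21 (spot error) at 4 h, just inside 2-fold, then -3.86 ± 0.24 at 20 h and -4.09 ± 0.28 at 32 h, or 14.5-fold and 17.1-fold lower. With normexp, another background correction, the late log2 ratios were smaller, at -3.05 and -3.22.

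*Timp1*, a secreted inhibitor induced by serum and cytokines, had scaled log2 signals of 4.89, 4.58, 4.39 and 4.31 on the control, 4 h, 20 h and 32 h arrays. *Timp2*, which also takes part in the activation of the gelatinase *Mmp2*, had 7.44, 7.28, 7.08 and 7.26. *Timp4* had -3.99, -4.40, -4.14 and -4.30. By the brightest probes of these 3 inhibitors the control was the highest array, with log2 ratios between -0.58 and -0.15, so none was past 2-fold. At 20 h *Timp4* turned above the control, to 0.19 at most, with spike-in or no scaling. The second probe of *Timp2* lay above the control on each pulsed array, with log2 ratios of 0.37, 0.23 and 0.01. The brighter probe had -0.16, -0.36 and -0.18.

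The stromelysins *Mmp3* and *Mmp10*, which cleave proteoglycans and noncollagenous matrix proteins and activate other MMPs, stayed near the control at 4 h and fell later. *Mmp3* had scaled log2 signals of 1.99 in the control, 2.15 at 4 h, 0.45 at 20 h and 0.15 at 32 h. The control and the 4 h array were close together, and both late arrays were lower. The log2 ratios were 0.16 ± 0.20, -1.53 ± 0.20 and -1.84 ± 0.20 (spot error), and both falls were past 2-fold. *Mmp10* had -0.62, -0.48, -3.25 and -3.75 on the same arrays, with log2 ratios of 0.15 ± 0.21, -2.62 ± 0.22 and -3.12 ± 0.27. This is 6.16-fold lower at 20 h and 8.71-fold lower at 32 h, where normexp gave a log2 ratio of -2.37. The small ratios of both genes at 4 h were above 0 here, and they turned below 0 when the arrays were scaled by the median or the spike-in probes, or not at all.

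The gelatinases, which cleave denatured collagen and basement membrane collagen, differed from each other. *Mmp9* had scaled log2 signals of -2.71, -2.34, -4.68 and -3.92 on the control, 4 h, 20 h and 32 h arrays, each a mean of 10 spots with an SD over spots of 0.12, 0.08, 0.24 and 0.19. The late arrays were lower than the control, at -1.97 (log2 ratio) for 20 h and -1.20 for 32 h, and the spread of the spots covers 1 array and not the spread between cultures. With normexp, another background correction, the 20 h ratio was -1.21. The same gene was at 0.37 ± 0.23 (spot error) at 4 h. *Mmp2*, which fibroblasts make constitutively, had 4.24, 4.11, 3.73 and 4.20, and its lowest log2 ratio was -0.52 ± 0.20 at 20 h. The neutrophil collagenase *Mmp8* had -2.96, -2.97, -5.75 and -3.67, and it was not well above background at 20 h. It was at least 4.45-fold lower at 20 h, with a log2 bound of -1.21 under normexp, and 1.64-fold lower at 32 h, where its log2 ratio was -0.71 ± 0.27.

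**Figure D3:**
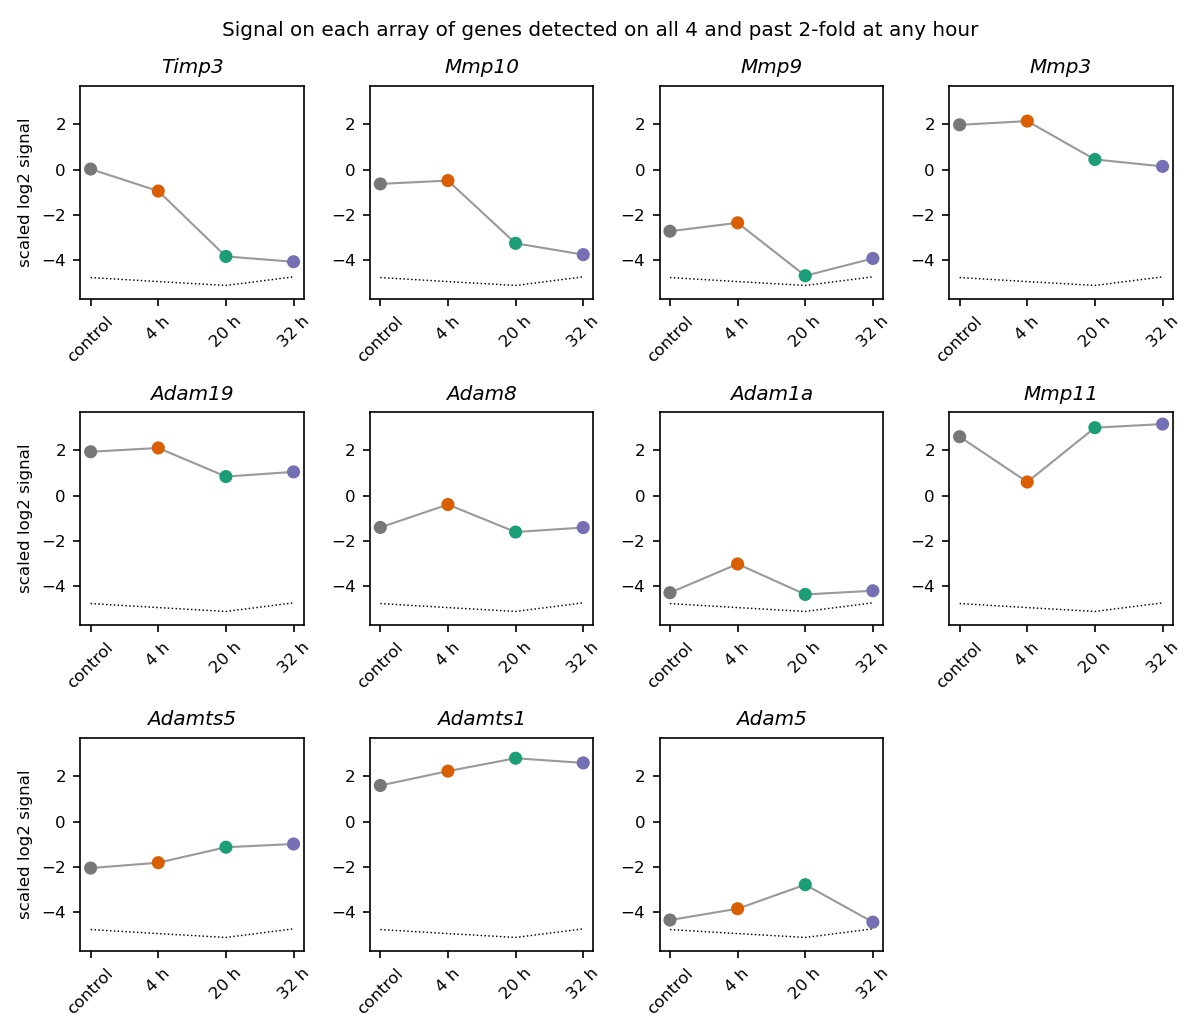
Scaled log2 signal (vertical axis; 0 is the 75th percentile of the array) on the control, 4 h, 20 h and 32 h arrays for the 11 genes detected on all 4 arrays and past 2-fold of the control on at least 1, in order of the 20 h ratio, with the lowest detected signal of each array dotted. *Timp3*, *Mmp10*, *Mmp9* and *Mmp3* are low on both late arrays, *Mmp11* is low at 4 h alone, and *Adamts1* and *Adamts5* are above the control on both late arrays.

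*Mmp11*, a stromelysin by name that is activated by furin inside the cell and cleaves few matrix proteins, was the gene past 2-fold below the control at 4 h. Its scaled log2 signals were 2.61, 0.61, 3.01 and 3.17, so the 4 h array was low and both late arrays lay above the control. The log2 ratio was -2.00 ± 0.20 (spot error) at 4 h, 0.40 ± 0.20 at 20 h and 0.56 ± 0.20 at 32 h. Its second probe gave -2.02, 0.37 and 0.48. The matrilysin *Mmp7*, which has no hemopexin domain, had -1.01, -0.80, -1.58 and -0.93, with its lowest ratio, -0.57 ± 0.21, at 20 h.

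*Mmp13*, the main interstitial collagenase of rodents, was detected at 4 h alone. Its scaled log2 signals were -6.31 in the control, -3.50 at 4 h, -7.38 at 20 h and -6.98 at 32 h. At 4 h it was at least 2.40-fold above the control, and against the 4 h array it was at least 3.05-fold lower at 20 h and at least 2.35-fold lower at 32 h. The bound over the control ranged down to 0.86 on the log2 scale under other scalings, which is less than 2-fold.

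The membrane-type MMP *Mmp14*, which cleaves collagen at the cell surface and activates *Mmp2*, had scaled log2 signals of 1.32, 1.72, 1.40 and 1.56. *Mmp17*, a membrane-type MMP held by a lipid anchor, had -4.03, -3.54, -3.95 and -3.78, and *Mmp19* had -0.15, -0.71, 0.12 and 0.06. None of these 3 was past 2-fold at any time. *Mmp24* and *Mmp25* and the brightest probe of *Mmp27* were detected at 4 h alone and *Mmp23* at 4 h and 32 h, with scaled log2 signals of -4.75, -4.00, -4.57, -4.37 and -4.13. The second probe of *Mmp27* was detected at 32 h alone, at -2.49. *Mmp21* was detected at 20 h alone, where it was at least 3.30-fold higher than the control. The log2 bound was 1.72, and 0.92 with normexp. That value came from 1 probe at -3.04, and the second probe of the gene was detected on no array.

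Of the 10 MMP genes that lie side by side on chromosome 9, 6 were detected on at least 1 array. Their probes lie in the order *Mmp13*, *Mmp12*, *Mmp1b*, *Mmp3*, *Mmp1a*, *Mmp10*, *Mmp8*, *Mmp27*, *Mmp20* and *Mmp7*, over 415 kb from chr9:7282762-7282821 to chr9:7697641-7697700 (mm9). The genes that fell past 2-fold at 20 h, *Mmp3*, *Mmp10* and *Mmp8*, follow each other among the detected genes, and *Mmp7* at the end of the run did not pass 2-fold.

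**Figure D4:**
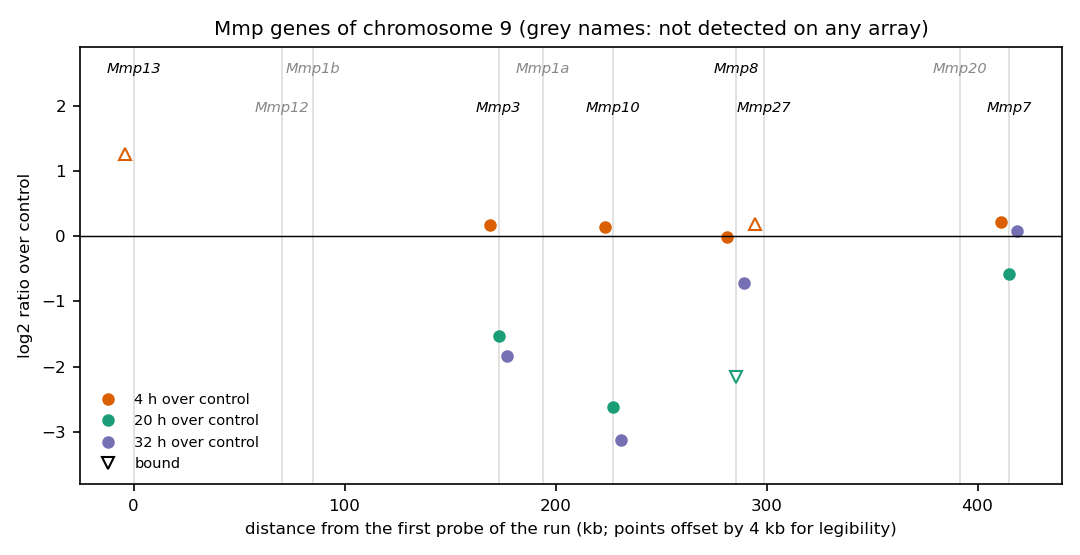
Log2 ratio over the control (vertical axis) of the MMP genes of chromosome 9 against the distance of their probe from the first probe (horizontal axis, kb), at 4 h (orange), 20 h (green) and 32 h (violet), with open triangles for bounds and grey names for genes detected on no array. At 4 h the measured points lie near 0, while the late points of *Mmp3*, *Mmp10* and *Mmp8* lie below it.

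The upstream sequences of these neighbours are shown because 8 of the 10 hold the same short motif close to the start site. AP-1, the factor made of Fos and Jun proteins, is known to act on several MMP promoters through TGAGTCA, or TGACTCA on the other strand. The letters searched here were TGANTCA, which read the same on both strands. They are wider and also admit TGAATCA, the match of *Mmp20* and *Adam25*. In the 250 bases before the start site (RefSeq, GRCm38.p6), these letters were found for 11 of the 48 genes of the group with an entry, or 22.9%, and for 7.82% of the 27025 genes with one. A gene counted where any of its start sites had the match. Of these 11 genes 8 were the neighbours, so the share of the group is mostly that of the run and not of its other genes. The matches of the 8 neighbours, and that of *Adam19* on chromosome 11, are given with 10 bases on either side, 5′ to 3′ along the gene, the matched letters in capitals.
Mmp13: cccaaagtggTGACTCAtcactatcat
Mmp12: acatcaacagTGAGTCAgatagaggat
Mmp1b: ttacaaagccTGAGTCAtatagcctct
Mmp3: gaagcaattaTGAGTCAgttttcgggt
Mmp1a: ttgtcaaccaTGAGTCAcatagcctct
Mmp10: agcacccatgTGAGTCAtgcttagtga
Mmp20: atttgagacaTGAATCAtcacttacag
Mmp7: agtgtgcaaaTGAGTCAcctatttcca
Adam19: gtccttcaccTGAGTCAgcgatgctcc
Read along the gene, the matched letters were TGAGTCA for 6 of the 8 neighbours. Those of *Mmp13*, TGACTCA, are TGAGTCA on the other strand, and those of *Mmp20* were TGAATCA. The match began 46 bases before the start site for *Mmp3*, 63 for *Mmp10* and 35 for *Mmp13*. It began 63 bases before 1 of the start sites of *Mmp7* and 131 before 1 of those of *Adam19*. For *Mmp12* too, only 1 of the start sites had the match. The genes with a match included *Mmp3* and *Mmp10*, which fell, *Mmp7*, which did not pass 2-fold, *Mmp13*, which was detected at 4 h alone, and *Mmp12*, *Mmp1a*, *Mmp1b* and *Mmp20*, which were not detected. The other genes of the group with a match were *Adam19*, which fell, and *Adam25* and *Adam29*, which were not detected. *Mmp8*, which fell past 2-fold at 20 h by a bound, and *Mmp27* had no match. *Mmp9*, which also fell, had no promoter entry and was not searched. A match is a description of the letters and not a measured site, and binding of AP-1 was not measured. These neighbours arose by duplication, so their sequences are not independent.

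The whole upstream regions of *Mmp3*, *Mmp10* and *Timp3* are printed for comparison, with AP-1 matches in capitals. These genes were past 2-fold below the control at both 20 h and 32 h under every alternative. *Mmp8* and *Mmp9* also fell at 20 h, further than *Mmp3*, and their regions are not printed.
Mmp3 upstream region, chr9:7445572-7445821, + strand: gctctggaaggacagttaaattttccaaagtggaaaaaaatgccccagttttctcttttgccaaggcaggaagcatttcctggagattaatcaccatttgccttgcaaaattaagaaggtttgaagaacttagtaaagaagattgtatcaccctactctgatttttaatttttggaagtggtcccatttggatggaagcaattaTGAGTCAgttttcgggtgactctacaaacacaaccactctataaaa
Mmp10 upstream region, chr9:7502092-7502341, + strand: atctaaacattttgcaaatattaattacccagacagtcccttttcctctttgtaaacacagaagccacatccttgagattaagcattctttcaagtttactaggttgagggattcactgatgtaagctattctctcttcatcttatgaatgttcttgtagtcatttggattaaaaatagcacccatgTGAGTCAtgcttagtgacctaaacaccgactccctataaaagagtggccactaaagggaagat
Timp3 upstream region, chr10:86300162-86300411, + strand: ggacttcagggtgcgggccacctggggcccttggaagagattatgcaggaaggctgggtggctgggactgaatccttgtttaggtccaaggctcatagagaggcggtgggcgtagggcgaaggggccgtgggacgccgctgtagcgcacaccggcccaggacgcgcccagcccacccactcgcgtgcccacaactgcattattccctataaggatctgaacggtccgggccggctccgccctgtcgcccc
The regions of *Mmp3* and *Mmp10* had 37.6% and 37.2% G and C, and that of *Timp3* had 65.6%. Both MMP regions held the letters TATAAA, found for 12 of the 48 genes and 14.3% of all genes, and that of *Timp3* did not. No AP-1 match was found in the *Timp3* window, which says only that these letters are not within it. The E-box CACGTG, the motif of clock factors, was found for 5 of the 48 genes (10.4%) and 6.86% of all genes. The antioxidant response motif TGACNNNGC was also found for 5 of the 48, against 11.5% of all genes. Both strands were searched.

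Among the catalytic ADAMs, the main sheddases did not pass 2-fold. *Adam10*, the sheddase of Notch receptors and cadherins, had scaled log2 signals of 2.69, 2.70, 2.82 and 2.79. *Adam17*, the sheddase of tumor necrosis factor and ligands of the epidermal growth factor receptor, had -3.93, -3.98, -3.96 and -3.86. The log2 ratios of these 2 genes by their brightest probes lay between -0.05 and 0.14. The second probe of *Adam17* gave 0.13, 0.13 and 0.50 at 4 h, 20 h and 32 h. Under the 5 other scalings *Adam10* lay between -0.38 and -0.11 at 4 h and reached 0.47 at 20 h, and *Adam17* reached -0.47 at 4 h and 0.31 at 20 h, where it turned above 0 under 4 of them.

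*Adam9* (3.29, 3.28, 3.60 and 3.65 on the scaled log2 axis) and *Adam15* (4.09, 3.99, 4.50 and 4.50) were slightly higher at 20 h and 32 h, with log2 ratios of at most 0.41. *Adam12*, linked to myoblast fusion, had -3.03, -2.92, -3.35 and -3.37, and *Adam33* had -2.74, -2.28, -2.82 and -2.50. None of these 4 was past 2-fold.

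*Adam19* and *Adam8* were the catalytic ADAMs past 2-fold. *Adam19*, which can cleave neuregulin, had scaled log2 signals of 1.94, 2.11, 0.85 and 1.06, with both late arrays low. Its log2 ratios were 0.17 ± 0.20, -1.10 ± 0.20 and -0.89 ± 0.20 (spot error), so it passed 2-fold at 20 h and not at 32 h. *Adam8*, known from leukocytes and from inflammation, had -1.40, -0.39, -1.60 and -1.40, with the 4 h array alone high. Its log2 ratio at 4 h was 1.01 ± 0.21, at the edge of 2-fold, and it ranged down to 0.61 under other scalings. Of the 8 macrophage and leukocyte markers, 4 were detected in the control, 4 at 4 h, 4 at 20 h and 4 at 32 h, *Ptprc*, *Lyz2*, *Emr1* and *Tyrobp* were detected on no array, and their part in this value was not tested.

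The ADAMs without a catalytic site act as adhesion proteins or receptors, mainly in neurons. *Adam11* (-0.78, -0.47, -0.79 and -0.62) and *Adam23* (1.55, 1.64, 1.56 and 1.31 on the scaled log2 axis) were detected on all arrays and stayed within 2-fold. At 4 h the second probe of *Adam11* had a log2 ratio of -0.63, beside 0.31 for the brighter probe. *Adam22* was detected at 20 h alone, at -2.47, and was at least 4.90-fold above the control there, a log2 bound of 2.29 that was 1.38 with normexp. Its 2 other probes were detected on no array.

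The reproductive tract ADAMs, known mainly from sperm and testis, were detected for a minority of the genes on each array. *Adam1a*, which encodes a subunit of the sperm protein fertilin, had scaled log2 signals of -4.28, -3.01, -4.36 and -4.19, with the 4 h array high and a log2 ratio of 1.27 ± 0.35 (spot error). *Adam30* was detected at 4 h alone, at -1.97, at least 6.93-fold above the control (a log2 bound of 2.79, and 1.75 with normexp), and *Adam4* at 4 h alone, at -3.70, at least 2.08-fold above. Under other scalings *Adam1a* ranged down to 0.87 and *Adam4* to 0.65 on the log2 scale, short of 2-fold. *Adam5* had -4.34, -3.84, -2.78 and -4.43 and was 2.95-fold higher at 20 h (log2 ratio 1.56 ± 0.32, 0.79 with normexp and 0.61 as the mean over its probes), and its second probe was detected on no array. *Adam32* had -3.37, -2.56, -3.91 and -4.05, within 2-fold of the control. *Adam3* was detected in the control alone by its brightest probe and at 32 h, at -4.56, by its second, *Adam21* at 4 h alone, *Adam26a* at 20 h alone, *Adam24* in the control and at 4 h, and *Adam6b* at 4 h and 20 h, with brightest probes between -4.42 and -3.74. Of the 8 testis germ cell markers 2 were detected in the control, 3 at 4 h, 3 at 20 h and 2 at 32 h, and their part in these values was not tested.

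The proteoglycanases *Adamts1*, *Adamts4* and *Adamts5*, known for the cleavage of versican and aggrecan, were above the control at both late times. *Adamts1* had scaled log2 signals of 1.60, 2.24, 2.81 and 2.60, and the control was the lowest array. Its log2 ratios were 0.63 ± 0.20, 1.20 ± 0.20 and 1.0 ± 0.20 (spot error), past 2-fold at 20 h and just short of it at 32 h. *Adamts5*, whose probe lies 63.4 kb from that of *Adamts1* on chromosome 16, had -2.04, -1.81, -1.12 and -0.98, with log2 ratios of 0.24 ± 0.21, 0.92 ± 0.21 and 1.06 ± 0.21. Its second probe gave 0.98 at 20 h and 1.09 at 32 h, but -0.61 at 4 h, where the probes had opposite signs, though the first probe was also below 0 (to -0.16) with median, spike-in or without scaling.

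*Adamts4* had scaled log2 signals of -0.89, -1.77, -0.29 and -0.01, with the 4 h array lowest. Its log2 ratios were -0.87 ± 0.21, 0.60 ± 0.21 and 0.89 ± 0.21 (spot error), all within 2-fold. Under other scalings *Adamts4* ranged down to -1.27 at 4 h and up to 1.06 at 32 h, past 2-fold. Its second probe gave 0.35 at 4 h, against the sign of the first, and 0.82 and 1.53 later. *Adamts8* had -3.54, -3.31, -3.48 and -3.53, and *Adamts15* was detected at 20 h and 32 h alone, at -4.93 and -4.16. Over the 4 of 7 proteoglycanases with a measured ratio, the median log2 ratio was 0.76 at 20 h and 0.94 at 32 h, beside -0.00 at both times over all genes. These 4 are *Adamts1*, *Adamts4*, *Adamts5* and *Adamts8*, and *Adamts8* alone had 0.06 and 0.01. The median therefore restates the values of the other genes and is not a result of the whole group.

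Of the procollagen N-proteinases, *Adamts2* had scaled log2 signals of -1.55, -1.73, -1.56 and -1.35 and *Adamts14* had 1.60, 0.75, 0.78 and 1.31. *Adamts14* was lowest at 4 h and 20 h, with log2 ratios of -0.85 ± 0.20, -0.83 ± 0.20 and -0.29 ± 0.20 (spot error), within 2-fold. Under other scalings *Adamts14* ranged down to -1.25 at 4 h, past 2-fold. Its second probe, dimmer, had a log2 ratio of 0.01 at 4 h, was at least 2.22-fold lower at 20 h and had 0.13 at 32 h. *Adamts3* was detected at 4 h alone, at -4.64. *Adamts7*, which cleaves cartilage oligomeric matrix protein, had 1.35, 1.02, 1.52 and 1.58, *Adamts12* was detected at 4 h alone at -4.35 and the brightest probe of *Adamts10* at 20 h alone at -4.55, not above its undetected control signal of -4.32. The second probe of *Adamts10* was detected at 32 h alone, at -3.93.

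Between 20 h and 32 h, 3 genes were at least 2-fold higher at 20 h and 1 was lower, against 0.527% and 1.17% of all genes. Those higher were *Adam5*, *Adam22* and *Mmp21*, and the lower one was *Mmp8*, at least 2.71-fold.

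The pulsed arrays were also set against each other, a comparison chosen after the data had been seen, which leaves out the control. From 4 h to 20 h, 5 genes were at least 2-fold higher and 14 lower, against 5.81% and 9.38% of all genes. From 4 h to 32 h, 2 were higher and 11 lower, against 5.91% and 8.46%. *Timp3*, *Mmp3*, *Mmp9*, *Mmp10*, *Mmp13*, *Adam8* and *Adam19* were among the lower genes at both times, and *Mmp11* and *Adamts4* were higher at both. *Mmp11* was 5.28-fold higher at 20 h than at 4 h, *Mmp10* was 6.82-fold lower and *Timp3* was 7.41-fold lower. From 4 h to 32 h *Adam8* and *Adam19* were near the threshold, at 2.02-fold and 2.08-fold lower. The 4 h array depended most on the scaling, and these comparisons are given under 1 scaling only, so such calls and the counts may change.

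Further lists of related genes were taken beside the group. Of 24 other regulators of matrix proteases, 2 were at least 2-fold higher than the control at 4 h and none lower, against 6.78% and 5.06% of all genes. These were *Plaur*, the receptor of the plasminogen activator urokinase, with scaled log2 signals of 2.14, 3.69, 0.98 and 1.20, and the urokinase inhibitor *Serpinb2*, with -2.93, 0.56, -2.57 and -1.99. Their log2 ratios at 4 h were 1.55 and 3.49. At 20 h, 4 of the 24 were lower and none higher, against 2.0% and 0.822% of all genes, and, named after their values were seen, these were *Plau* (log2 ratio -1.60), *Plat* (-1.03), *Plaur* (-1.17) and *Cd44* (-1.24). At 32 h *Plau* and *Cd44* were lower, against 1.55% of all genes. The plasminogen activator system, to which *Plau*, *Plat* and *Plaur* belong, is known to activate MMP proenzymes through plasmin.

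Of 20 other matrix proteases and ADAMTS-like proteins, 2 were higher at 4 h by bounds and 1 was lower, against 6.78% and 5.06% of all genes. The lysosomal cysteine protease *Ctss* was detected at 4 h alone, with scaled log2 signals of -6.82, -0.39, -7.24 and -6.78 and a log2 bound of 4.37. *Papln* had a log2 bound of 1.42, and the serine protease *Htra1* had a log2 ratio of -1.54. At 20 h 1 of the 20 was higher, *Mep1a*, named after its value was seen, against 0.822% of all genes, and at 32 h none was past 2-fold.

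Of 20 matrix substrates, *Bcan* was higher at 4 h, by a log2 bound of 1.96, and *Thbs1* was lower, with a log2 ratio of -1.86, against 6.78% and 5.06% of all genes. At 20 h 4 of the 20 were lower and none was higher, against 2.0% and 0.822% of all genes, and, named after their values were seen, these were the collagens *Col1a1* (log2 ratio -1.06) and *Col3a1* (-1.02), the proteoglycan *Bgn* (-2.13) and *Thbs1* (-1.65). At 32 h *Bgn* and *Thbs1* were lower, against 1.55% of all genes.

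Of 20 membrane proteins that ADAM sheddases are known to release, 3 were higher at 4 h and 1 lower, against 6.78% and 5.06% of all genes. *Ereg*, a ligand of the epidermal growth factor receptor, had scaled log2 signals of 1.83, 5.61, 1.27 and 1.36, high at 4 h alone, with a log2 ratio of 3.77. *Nrg1* had a log2 ratio of 1.48 at 4 h, *Vcam1* of 1.20 and the chemokine *Cx3cl1* of -1.57. At 20 h and 32 h 3 were lower and none was higher, against 2.0% and 1.55% of all genes lower, and, named after their values were seen, these were *Hbegf* (-1.79 and -1.55), *Cx3cl1* (-1.54 and -1.36) and *Jag1* (-1.91 and -1.44).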

How the data were processed

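RNA of 4 samples was hybridized to Agilent whole mouse genome arrays in 1 color. The authors deposited intensity values from Feature Extraction 10.7.3.1 (the submitters' processing notes), corrected by the software for local background and spatial trend, and a second table in which each array's intensities are scaled by 1 constant (spread of at most 0.00024% of the constant). The deposited intensity was taken to log2 here, averaged over unflagged spots of each probe (125 to 161 spots per array were flagged, none saturated), and set relative to the 75th percentile of its array. Probes are placed on mm9 by the files. Detection needed 50% of spots well above background, and the threshold was 2-fold. With 1 array per condition the precision is limited by their number, the paired SAM of the study's methods was not repeated, and no replicate could be left out. Every gene detected on at least 1 array was named. The members and lists were chosen with earlier results of these data known. The calculation was tested on simulated data. Python 3.11.15, pandas 2.3.3 and, for normexp alone, limma 3.58.1 in R 4.3.3 were used. RefSeq promoters were present for 48 of 78 genes, and the sequences of the other 30 were not analysed here. The 15 alternatives covered scaling, background, detection, probe choice, threshold and the deposited table. The comparisons of 20 h and 32 h with 4 h were added after the data had been seen. A gene of the list of regulators is not reported here.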

Additional observations from a re-analysis of the deposited data

Results flagged for a closer look

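In 3 genes a probe that was not used for the gene's value was more than 2-fold above the control while the used probe was not. A second probe of *Adam33* was detected at 20 h alone, with a log2 bound over the control of 3.45, beside -0.08 for the used probe. The second probe of *Adamts4* had a log2 ratio of 1.53 at 32 h, beside 0.89. The second probe of *Mmp27* was detected at 32 h alone, with a log2 bound of 2.27, where the used probe was not detected.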

How the results depend on the processing

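The array at 4 h depended most on the scaling. The median log2 ratio of all genes at 4 h was lower by 0.36 with median scaling, 0.40 with spike-in scaling, 0.28 with no scaling, 0.19 with quantile normalization and 0.12 with a 75th percentile over commonly detected probes. Of 25 ratios past 2-fold among these genes, 13 stayed past it under all alternatives that gave a ratio, *Timp3*, *Mmp10* and *Mmp3* at 20 h and 32 h and *Mmp11* at 4 h among them, and 0 reversed. Those that came within 2-fold under at least 1 alternative were *Adam1a*, *Adam4*, *Adam8* and *Mmp13* at 4 h, *Adam5*, *Adam19* and *Mmp21* at 20 h, *Adamts5* and *Mmp9* at 32 h, and *Adam5*, *Mmp8* and *Mmp21* between the late arrays. The log2 ratio of *Mmp9* at 32 h ranged up to -0.74 and that of *Adam19* at 20 h up to -0.76. Some ratios within 2-fold here passed it under at least 1 of the 5 other scalings. Lower at 4 h were *Timp3*, *Adamts4*, *Adamts14* and *Adam3* (a bound). Higher were *Adamts5* at 20 h, and *Adamts1* and *Adamts4* at 32 h. Genes near background have only bounds. No replicate could be left out, since each condition had 1 array. No paired analysis was possible because the groups hold 1 array each.

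The genes detected in the control numbered 36, and 60 with the flag for positive and significant signals. At 4 h, 5 genes were higher and 1 lower. These were 1 and 5 with median scaling, 3 and 2 with that over commonly detected probes, 2 and 3 with quantile normalization, 1 and 5 with spike-in scaling, and 1 and 4 with no scaling. They were 9 and 5 at 1.5-fold. The number higher was 1 with normexp background correction, 2 with detection on both arrays and 1 at 3-fold. At 20 h, 4 were higher, and 2 with normexp, 2 with detection on both arrays, 1 with the mean over probes and 2 at 3-fold. At 32 h, 1 was higher, and 2 with median scaling, 2 with quantile normalization, 3 with spike-in scaling, 3 with no scaling, 0 with normexp, 2 with the mean over probes, 3 with any probe, 4 at 1.5-fold and 0 at 3-fold. The number lower at 32 h was 4, and 7 at 1.5-fold. Between 20 h and 32 h, 4 differed, and 1 with normexp, 1 with detection on both arrays, 8 with any probe and 8 at 1.5-fold. With no detection filter, or with the flag for positive and significant signals, 11 were higher and 3 lower at 4 h, 11 lower at 20 h, 5 higher and 8 lower at 32 h, and 10 differed between 20 h and 32 h. The deposited table was used without a detection filter too. With it the counts were 11 and 3 at 4 h, 11 lower at 20 h, 6 and 8 at 32 h, and 10 between 20 h and 32 h.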
